A study of Mus musculus with 2 samples.

Results

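Ionotropic glutamate receptors are the channels that glutamate opens at most excitatory synapses of the brain. The genes Gria1 to Gria4 encode the subunits of AMPA receptors, which carry the fast part of the synaptic current. The genes Grin1, Grin2a to Grin2d and Grin3a encode subunits of NMDA receptors, which pass calcium when glutamate binding coincides with depolarisation and which always contain the Grin1 product. These 10 of 21887 protein-coding genes were chosen by function, and every H4K12la peak within the annotated gene span or 10 kb on either side was collected. H4K12la is histone H4 with a lactyl group on lysine 12, a mark whose acyl group comes from lactate. The windows held 29 of 39768 peaks in the lactate library and 31 of 46592 peaks in the control library.

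The cells were Neuro2a, a mouse neuroblastoma line grown in serum-containing medium. One library came from cells given 25 mM lactate and 1 from cells given NaCl. Both were made by CUT&Tag, in which an antibody against H4K12la brings a transposase to the mark and the DNA beside it is tagged for sequencing. With 1 library per treatment there was no replicate check, no test between the treatments was possible, and each difference below is between these 2 libraries. Intervals are 95% intervals and cover counting error only.

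Read totals are not in the peak lists, but the genome-wide background recovered from them was 3.43% higher in the lactate library, and no called peak had a summit below 11 reads in either library. A window with no peak may therefore still hold signal below that level. Of 10 genes that mark neuronal and neuroblastoma identity, 7 had a lactate peak and 4 a control peak within 1 kb of a gene end, where 44.8% and 32.0% of all protein-coding genes had one. Of 10 genes of other cell types, 1 had such a peak in the lactate library (Mbp) and 0 in the control. In pooled density over span plus 10 kb the order was opposite. The genes of other cell types held 3.68 lactate and 2.52 control peaks per 100 kb, the identity genes 2.86 and 2.03, and all protein-coding genes 2.64 and 2.18. By genes with any peak in those windows, 10 identity genes had a lactate and 8 a control peak, against 7 and 6 of the other cell types. Of all protein-coding genes, 66.8% had a lactate and 59.3% a control peak there. Peaks of a histone mark are not expression, and neither list measures which receptor subunits the cells make.

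The libraries differed in which of the 10 receptor genes held peaks. A lactate peak lay in 8 of the 10 windows, where 66.8% of all protein-coding genes had one, and a control peak in 6 of 10, where 59.3% of all genes had one. Both libraries had peaks at Gria1, Gria2, Gria4, Grin2a and Grin3a (5 of 10, against 52.2% of all genes). The lactate library alone had peaks at Grin1, Grin2c and Grin2d (3 of 10, against 14.7%), and the control alone at Grin2b (1 of 10, against 7.08%). Gria3 had none in either library (1 of 10, against 26.1%). Pooled over the 10 windows there were 1.18 lactate peaks and 1.26 control peaks per 100 kb, where the windows of all protein-coding genes held 2.64 and 2.18. The 7 members of at least 100 kb held 0.909 and 1.34, where all genes of that length held 1.52 and 1.56. The 3 shorter members held 5.50 lactate and 0 control peaks per 100 kb, where all genes under 100 kb held 3.56 and 2.69.

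**Figure D1:**
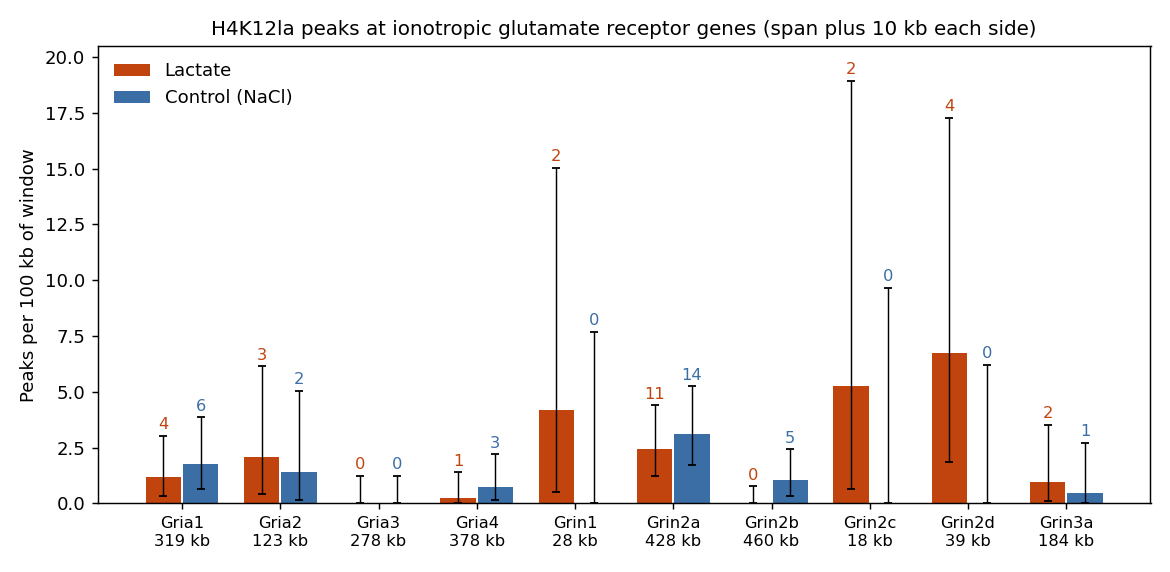
H4K12la peaks per 100 kb of window (annotated span plus 10 kb on either side) at each of the 10 genes, lactate at left and control at right in each pair. Bars start at 0, the number above each is its count of peaks, and error bars are exact Poisson 95% intervals of the count. Grin1, Grin2c and Grin2d have lactate peaks and 0 control peaks, Grin2b has 0 lactate and 5 control peaks, and Gria3 has 0 of both.

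Gria2, which encodes the subunit that makes AMPA receptors impermeable to calcium, was the one of 5 members with a listed transcription start whose start lay inside a peak of both libraries. The RefSeq promoter table, built on GRCm38.p6 (mm10), lists 1 start for Gria2, Gria4, Grin1, Grin2c and Grin2d, all on the minus strand. The window printed for each runs from 250 bases before the start to 50 bases after it. The Gria2 window is shown because peaks cover it, with the bases inside a peak of both libraries in capitals (positions 105 to 300, counted from 1 at the 5′ end). The Grin1 and Grin2d windows are shown because a lactate peak lay within 1 kb of their starts; capitals in Grin1 mark motif matches described below, and Grin2d has none.
Gria2, chr3:80802786-80803085, minus strand: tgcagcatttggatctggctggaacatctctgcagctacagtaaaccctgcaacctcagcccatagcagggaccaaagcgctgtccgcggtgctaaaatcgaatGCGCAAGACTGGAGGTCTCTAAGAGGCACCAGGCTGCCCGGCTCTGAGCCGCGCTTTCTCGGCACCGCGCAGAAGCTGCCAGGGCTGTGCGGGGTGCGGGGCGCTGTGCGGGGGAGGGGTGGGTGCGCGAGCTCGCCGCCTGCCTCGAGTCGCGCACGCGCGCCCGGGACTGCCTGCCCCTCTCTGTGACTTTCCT
Grin1, chr2:25319138-25319437, minus strand: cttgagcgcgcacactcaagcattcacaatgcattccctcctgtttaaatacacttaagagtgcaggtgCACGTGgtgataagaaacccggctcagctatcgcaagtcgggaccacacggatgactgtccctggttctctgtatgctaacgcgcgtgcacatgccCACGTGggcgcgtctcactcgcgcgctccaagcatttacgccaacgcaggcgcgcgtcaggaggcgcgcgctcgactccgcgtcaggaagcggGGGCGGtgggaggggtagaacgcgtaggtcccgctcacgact
Grin2d, chr7:45866632-45866931, minus strand: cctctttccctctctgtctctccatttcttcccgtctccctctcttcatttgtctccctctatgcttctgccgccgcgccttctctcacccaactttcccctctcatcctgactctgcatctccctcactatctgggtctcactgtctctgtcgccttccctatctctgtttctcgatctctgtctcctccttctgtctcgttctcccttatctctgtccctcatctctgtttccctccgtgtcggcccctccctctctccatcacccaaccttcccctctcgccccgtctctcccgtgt

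These windows differed in base content. Grin1 had 33 CpG dinucleotides in 300 bases, more than 91.4% of the 32851 listed promoters, whose median was 7. Gria2 had 26, Grin2c 22, Gria4 17 and Grin2d 12. Matches to 5 motifs were searched on both strands: the GC box GGGCGG, the E-box CACGTG, the cAMP response element TGACGTCA, the NRF-1 core TGCGCA and the left part of the RE1 element, CAGCACC. Gria2 had 1 match to the NRF-1 core, at positions 104 to 109, where the shared part of the peaks begins; 7.76% of all promoters have one. Grin1 had 2 E-box matches, at 70 to 75 and 166 to 171, and 1 GC box, at 259 to 264; E-boxes occur in 7.15% and GC boxes in 35.7% of all promoters. Grin2c had 3 GC boxes, of which 2 overlap by 1 base, and 1 NRF-1 core. No match of any of the 5 was found in Gria4 or Grin2d. A match is a run of letters and does not show that a factor binds there.

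At the Gria2 start, the summit of the lactate peak had 27 reads (17.8 to 39.3) and that of the control peak 18 reads (10.7 to 28.4). The peaks covered 80802675 to 80802981 in the lactate library and 80802699 to 80803025 in the control, 307 and 327 bp wide, and their summits lay 87 and 77 bp downstream of the start. The read count was higher in the lactate library, with overlapping intervals, while the deposited fold over local background was 3.73 for the lactate peak and 3.96 for the control peak. Local background at the Gria2 peaks was 6.46 to 6.54 reads in the lactate library and 3.80 to 3.84 in the control; its part in these values was not tested. Peaks of both libraries also overlapped farther into the gene. There the lactate peak, 1797 bp downstream of the start, had 24 reads (15.4 to 35.7) over 608 bp, and the control peak, 1813 bp downstream, had 14 reads (7.65 to 23.5) over 130 bp. One more lactate peak, of 19 reads, lay 2439 bp downstream. All 5 Gria2 peaks thus stood within 4 kb of the higher-coordinate end of the gene, beside its listed start. The rest of the gene, which spans 123 kb (chromosome 3, 80681450 to 80804227), had none. The start lies 1392 bp inside the annotated higher-coordinate end, so none of the 5 fell in the window of 1 kb around that end.

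Gria1 encodes the AMPA subunit whose insertion into synapses is a classical step of long-term potentiation. It spans 319 kb on chromosome 11 (57011571 to 57330244) and held 4 lactate peaks, with summits of 15, 19, 13 and 23 reads in genomic order, and 6 control peaks, with 19, 22, 14, 18, 18 and 14 reads. All lay in the gene body, none within 1 kb of an end. About 29 kb from the lower-coordinate end, 1 control peak of 477 bp overlapped 2 lactate peaks of 113 and 210 bp. About 291 kb from that end, a lactate peak of 23 reads (14.6 to 34.5) overlapped a control peak of 18 reads (10.7 to 28.4). Close to 189 kb, the libraries each had a weak peak, of 13 and 14 reads, whose nearest ends lay 56 bp apart. Gria1 thus had similar places in both libraries, and 3 control peaks with no lactate peak within 4 kb.

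Gria4, a subunit of the fastest AMPA receptors, spans 378 kb on chromosome 9 (4417893 to 4796234) and had 1 lactate peak of 14 reads (7.65 to 23.5) and 3 control peaks of 13, 15 and 14 reads. None overlapped between the libraries, and all 4 were within 4 reads of the lowest callable summit. The start of Gria4, at the higher-coordinate end, had no peak within 1 kb. Gria3, the X-linked AMPA subunit gene, spans 278 kb (41400819 to 41678601) and had no peak in either library. Of 114 chromosome X genes of at least 100 kb, 47 also had none, or 41.2%, against 8.86% of the 2313 autosomal genes of that length. An empty Gria3 window therefore stood among many on its chromosome.

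Grin1 encodes the obligatory NMDA receptor subunit, which binds the co-agonist glycine. Its 28.0 kb on chromosome 2 (25291177 to 25319187) held 2 lactate peaks and 0 control peaks. One, of 20 reads (12.2 to 30.9) at 25318303 to 25318466, had its summit 771 bp downstream of the start and was the single peak of any member within 1 kb of an annotated gene end. The count of such genes was thus 1 of 10 in the lactate library and 0 of 10 in the control, where 44.8% and 32.0% of all protein-coding genes had an end peak. The other Grin1 peak, of 15 reads (8.40 to 24.7), lay 14.8 kb from the lower-coordinate end, in the middle of the gene. Neither reached a −log10 q of 5.

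Grin2d, the subunit of slowly closing NMDA receptors that is prominent early in development, also had peaks in the lactate library alone. It spans 39.3 kb on chromosome 7 (45831883 to 45871194), and its 4 lactate peaks had 13, 15, 18 and 25 reads in genomic order. The 18-read peak (10.7 to 28.4), at 45866142 to 45866278, had its summit 450 bp downstream of the listed start, which lies 4513 bp inside the annotated end. The strongest, with 25 reads (16.2 to 36.9) over 504 bp, lay 2.35 kb beyond the higher-coordinate end and inside the neighbouring gene Kdelr1, within 1 kb of an end of it. Kdelr1 encodes a receptor that returns proteins to the endoplasmic reticulum. The other 3 of its 4 peaks were in Grin2d itself.

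Grin2c, an NMDA subunit best known from cerebellar granule cells, had no peak inside its 18.1 kb on chromosome 11 (115249169 to 115267297) in either library. Its 2 lactate peaks, of 19 reads each (11.4 to 29.7), lay 6.00 and 9.60 kb beyond the higher-coordinate end and inside the adjoining gene Fdxr, which encodes ferredoxin reductase. The call of Grin2c in the lactate library therefore rested on the flank of 10 kb alone.

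By listed start, a lactate peak lay within 1 kb for Gria2, Grin1 and Grin2d and a control peak for Gria2, or 3 and 1 of the 5 members with a start. Of the 17492 genes with a listed start, 46.7% had such a lactate peak and 33.0% such a control peak, and 16.4% had one in the lactate library alone. With 5 genes, the counts of 3 and 1 lie near the shares of 46.7% and 33.0%. Of these 5, Grin1 and Grin2d had a start peak in the lactate library alone, and their difference from the 16.4% was not tested.

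Grin2a and Grin2b encode the main NMDA subunits of the forebrain, with Grin2b prominent before birth and Grin2a rising after it. The genes are of similar length, 428 and 460 kb, and they differed in their peaks. The window of Grin2a (chromosome 16, 9567901 to 9996083) held 11 lactate peaks and 14 control peaks, or 2.45 and 3.12 per 100 kb. Of the 11, 10 lay in the gene. The other, of 12 reads, lay 6.065 kb beyond the higher-coordinate end and inside the neighbouring gene Gm30668. The order of the counts turned to 11 lactate and 7 control peaks with lists of equal length, and to 10 and 7 with both lists held to a −log10 q of 2 or more. The deposited lists' densities were above the medians of the 2429 genes of at least 100 kb, 1.46 and 1.27, and 32.6% and 17.0% of those genes were denser. Grin2b (chromosome 6, 135713221 to 136173615) held 0 lactate peaks and 5 control peaks of 13, 14, 15, 18 and 14 reads in genomic order. The 5 stood in the middle of the gene, 176 to 298 kb from its lower-coordinate end. No lactate peak with 5 or more control peaks was found in 30 of the 2429 long genes (1.24%), and the opposite in 9 (0.371%). That pairing was counted after the Grin2b values were seen. It was not counted for genes of like span alone, and 1439 of the 2429 span only 100 to 200 kb. Of the 125 genes of 400 to 500 kb, 46.4% had more control and 36.8% more lactate peaks.

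The Grin2a peaks were spread along the gene. Summits had 11 to 31 reads in the lactate library and 12 to 36 in the control. The strongest lactate peak, of 31 reads (21.1 to 44.0) with a fold of 5.39, stood 327 kb from the lower-coordinate end, at 9894689 to 9895156. It overlapped a control peak of 23 reads (14.6 to 34.5) with a fold of 3.09. The strongest control peak, of 36 reads (25.2 to 49.8) with a fold of 5.91, stood 18.5 kb from the lower-coordinate end, at 9586213 to 9586558, and 97.6% of control peaks had fewer reads. It overlapped a lactate peak of 19 reads (11.4 to 29.7) with a fold of 4.02. The strongest place in Grin2a thus differed between the libraries, although the intervals overlapped at both places. The peak nearest the higher-coordinate end in the lactate library, of 11 reads, lay 1.10 kb inside it and so just missed the end window.

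By peaks per 100 kb in the 2 libraries, the genes closest to Grin2a among 815 of like span were Slco3a1 (2.67 lactate and 3.01 control), Ext1 (2.68 and 3.02) and Tns1 (2.13 and 3.41). With 2 values per gene this is a description only.

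Grin3a, a subunit that lowers calcium entry through NMDA receptors, spans 184 kb on chromosome 4 (49661611 to 49846023). It had 2 lactate peaks and 1 control peak. At 49731819 to 49732144 the lactate peak had 17 reads (9.90 to 27.2), and the control peak that overlapped it had 20 reads (12.2 to 30.9) over 554 bp. Their −log10 q values of 5.03 and 7.15 made this one of the few member places that passed 5. The other lactate peak had 11 reads, the lowest callable summit, 1.43 kb from the lower-coordinate end.

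**Figure D2:**
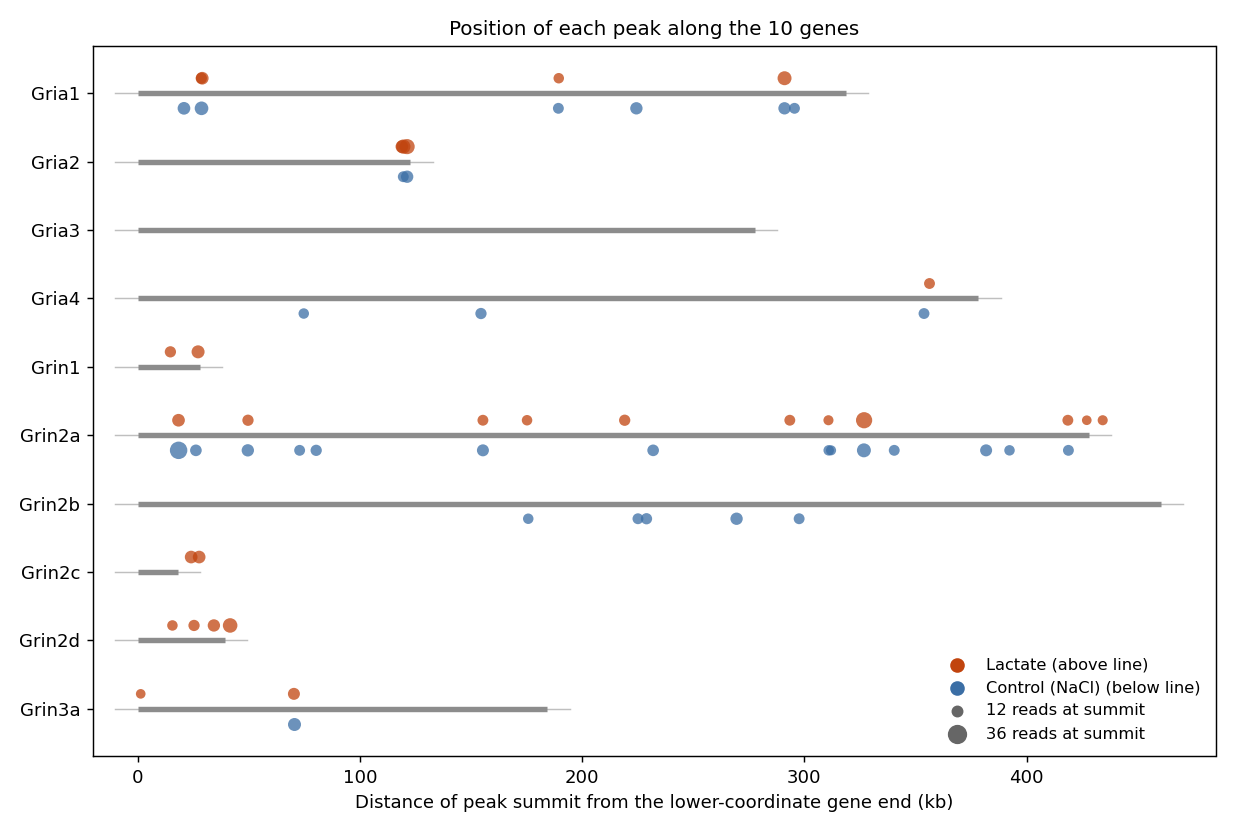
Position of every peak summit along the 10 genes, in kb from the lower-coordinate gene end. The thick line is the annotated gene and the thin line the flanks of 10 kb; lactate peaks are above the line and control peaks below it, with the area of a point in proportion to its summit reads. Peaks of Gria2 crowd at the end where its start is listed, those of Grin2a are spread along 428 kb, and Grin2b has control peaks only in its middle part.

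Member peaks were low and narrow, as most peaks in these lists are. The median summit was 15 reads in the lactate library (range 11 to 31) and 15 in the control (12 to 36), where all peaks had medians of 18 and 15. Median width was 186 bp in the lactate library and 172 bp in the control, against 207 and 192 bp for all peaks. A −log10 q of at least 5 was reached by 4 of 29 lactate peaks, at Gria1, Gria2, Grin2a and Grin3a, and by 2 of 31 control peaks, at Grin2a and Grin3a, where 24.7% of lactate and 13.2% of control peaks reached it. Each of these 6 peaks overlapped a peak of the other library.

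Of the member peaks, 11 of 29 in the lactate library (37.9%, 20.7% to 57.7%) and 10 of 31 in the control (32.3%, 16.7% to 51.4%) overlapped a peak of the other library by at least 1 bp. The shares for all peaks were 43.4% and 37.7%, inside both intervals. For peaks in the windows of all protein-coding genes they were 42.7% and 49.9%. The overlaps made 10 separate places, 2 in Gria1, 2 in Gria2, 5 in Grin2a and 1 in Grin3a. Summit reads were higher in the lactate library at 4 of them, including both in Gria2, and higher in the control at 6, including 4 of 5 in Grin2a. The 2 intervals overlapped at all 10 places; such overlap is no evidence of equal counts.

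**Figure D3:**
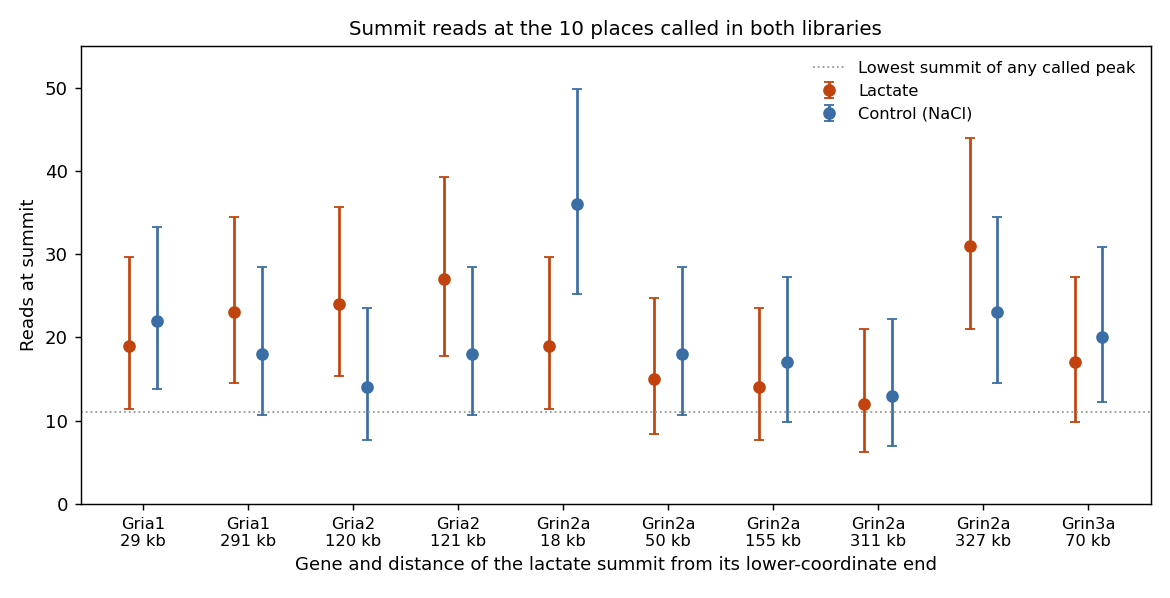
Reads at the summit of the peaks at the 10 places called in both libraries, lactate at left and control at right in each pair, with exact Poisson 95% intervals. Where a place held 2 lactate peaks, the higher is drawn. The dotted line marks 11 reads, the lowest summit of any called peak; every pair of intervals overlaps, and the widest gap is 19 lactate against 36 control reads in Grin2a.

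Gene span divided the members. The 3 under 100 kb, Grin1, Grin2c and Grin2d, held 8 lactate peaks and 0 control peaks, while the 7 of at least 100 kb held 21 and 31. Among all genes under 100 kb, 37.4% had more lactate than control peaks and 17.0% fewer, and 15.6% had peaks in the lactate library alone. Among all genes of at least 100 kb, 45.7% had more lactate peaks and 30.7% more control peaks. Of the 7 long members, 2 had more lactate peaks (Gria2 and Grin3a), 4 more control peaks (Gria1, Gria4, Grin2a and Grin2b) and Gria3 neither. The order turned for Grin2a with lists of equal length and with both lists held to a −log10 q of 2 or more, and Grin3a had 1 peak in each library at that −log10 q. Over all protein-coding genes, pooled density was 3.94 lactate and 2.79 control peaks per 100 kb in genes under 25 kb, 1.18 and 1.28 in genes of 400 to 500 kb, and 0.694 and 1.44 in longer ones.

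**Figure D4:**
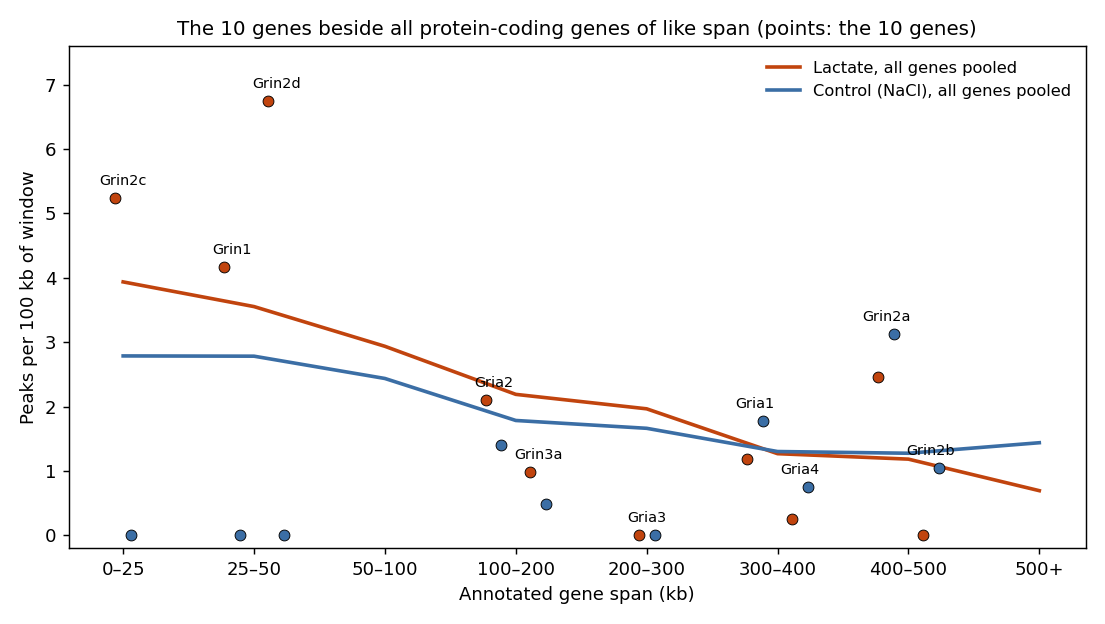
Peaks per 100 kb of window against annotated gene span in classes of kb, an axis of unequal steps. Lines pool all protein-coding genes of a class, points are the 10 genes, with lactate left of control at each name. The lines cross near 300 kb, where the lactate line passes below the control line; Grin2a lies above both lines of its class and Gria3 lies at 0.

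Other genes of the glutamate synapse, listed by function, were counted in the same way. The lists differed in which library held more peaks. They also differed in gene span, whose part in this was not tested. Of all 227 protein-coding genes of 500 kb or more, 64.3% had more control and 26.4% more lactate peaks. Their pooled density was 1.44 control and 0.694 lactate peaks per 100 kb. The 7 kainate and delta receptor genes counted, Grin3b among them, held 13 lactate and 37 control peaks. Of the 7, 2 had more lactate and 3 more control peaks, against 38.3% and 18.5% of all protein-coding genes. The kainate receptor gene Grik2, of 696 kb, had 2 lactate and 17 control peaks, and the delta receptor gene Grid1, of 763 kb, had 5 and 14. Grik5, of 66 kb, had 3 and 1, with 1 lactate and 0 control peaks in the gene itself. Grin3b, a further NMDA subunit gene, had an end peak of 21 reads (13.0 to 32.1) in the lactate library alone. It was 1 of 7 genes, against 16.2% of all genes. The 8 metabotropic receptor genes, whose products signal through G proteins, held 12 lactate and 65 control peaks. Of the 8, 1 had more lactate and 5 more control peaks, against the same 38.3% and 18.5%. Grm7, of 922 kb, had 1 and 27, Grm8, of 860 kb, had 4 and 18, and Grm5, of 551 kb, had 0 and 10. End peaks in the control alone lay at Grm7, with 17 reads, and Grm3, with 15. These were 2 of 8 genes, against 3.34% of all genes.

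The 14 AMPA and kainate auxiliary subunit genes held 25 lactate and 13 control peaks. Of the 14, 7 had more lactate and 1 more control peaks, against 38.3% and 18.5% of all protein-coding genes. Cnih2, an AMPA receptor export factor with a gene of 6 kb, had 3 lactate and 0 control peaks in its window. All 3 lay in the flanks of 10 kb, more than 1 kb from the gene. The transmembrane AMPA regulators Cacng7 and Cacng3 had 3 and 2, and 4 and 2. Cacng7 and the kainate receptor partner Neto1 had end peaks in the lactate library alone, with 19 and 14 reads. These were 2 of 14 genes, against 16.2% of all genes. The 14 scaffold and traffic genes held 66 lactate and 52 control peaks. More lactate peaks lay at 9 of 14 genes and more control peaks at 3, against the same 38.3% and 18.5%. Dlg4, the gene of the postsynaptic scaffold PSD-95, had 5 lactate and 0 control peaks, the AMPA receptor binding protein gene Pick1 had 4 and 3, and Homer1 had 6 and 6. Homer3, Pick1 and Grip1 had end peaks in the lactate library alone, with 27, 25 and 15 reads. The scaffold gene Shank3 had one in the control alone, with 13 reads. In this list 4 of 14 genes had end peaks in lactate alone and 1 in control alone, against 16.2% and 3.34% of all genes. Of 6 glutamate transporter genes, 5 had no peak in either library, against 26.1% of all genes. The remaining gene, Slc17a7, the vesicular transporter VGLUT1, had 2 lactate peaks and 1 control peak. All of these lay in the flanks of 10 kb, more than 1 kb from the gene.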

How the data were processed

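H4K12la CUT&Tag was measured in Neuro2a cells given lactate or NaCl, grouped by the treatment label, 1 library each. BWA, deepTools, MACS2 and mm10 are named, per the submitters' processing notes; versions, settings and any control library were not given in the sources used here. One peak list was deposited by the authors for each library, with a fold (ratio of summit pileup to local background), a −log10 p and −log10 q, and a score that is 10 times the −log10 q. The lowest −log10 q was 1.30 in both. These are the authors' values for each peak and were used to describe peaks within a list.

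The autosomes and both sex chromosomes were used. Summit reads were recovered by solving fold and the Poisson −log10 p together, to within 0.001 for all 39768 lactate and 46591 of 46592 control peaks; the solution was tested on simulated data. Gene spans were those of RefSeq on GRCm38.p6, listed without strand or exons, so "gene end" means either end. All 10 members were matched. Promoter sequences are RefSeq's, same build; 5 members had one. Intervals are exact (Poisson for counts, Clopper-Pearson for shares).

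The text names all members and each one's end peaks and strongest peaks. In each list of other genes it names up to 3 by density, with 3 or more peaks in a library, and up to 3 with end peaks in 1 library. One listed gene is not reported here. Members and lists were chosen with earlier results of these data known. Alternatives covered thresholds, list length, merging, flanks, end windows and overlap criteria. Software was scipy 1.17.1, pandas 2.3.3, numpy 2.4.6 and matplotlib 3.10.9 under Python 3.11.15.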

Additional observations from a re-analysis of the deposited data

How the results depend on the processing

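Of 70 recomputed values for the member set, 54 stayed within 1.5 times the reported count or inside the reported interval. With both lists held to a −log10 q of 5 or more, member windows kept 4 lactate and 2 control peaks, bodies 4 and 2, and ends 0 lactate genes. With only the own list held to that level, 100% of lactate and 100% of control member peaks overlapped the other list, from 4 and 2 peaks. A flank of 50 kb gave 51 lactate and 48 control peaks, since the windows are wider. The members with lactate peaks alone depended on the flank. At 50 kb Grin1 had 7 lactate and 6 control peaks, Grin2c 8 and 3, and Grin2d 10 and 1. With a flank of 5 kb or none, Grin2c had 0 lactate peaks. With no flank, Grin1 kept 2 and Grin2d 3 lactate peaks, and both had 0 control peaks. End calls moved with the window: 0 lactate genes at 500 bp, 4 lactate and 1 control at 2 kb, 5 lactate and 1 control at 3 kb, and 3 and 1 around a listed start, an alternative added after the data were seen. The order of the totals turned at a −log10 q of 2, with 27 lactate and 23 control peaks, and with lists of equal length, with 29 and 23; Grin2a turned under both, and at a −log10 q of 5 Gria1 had 1 lactate and 0 control peaks. No paired analysis was possible because each group has 1 library. No summit under 11 reads was called, and most member summits stood close to that level. The part of sequencing depth in it was not tested, as read totals were not at hand.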
